A study of Mus musculus with 6 samples.

Results

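Of the 9 thymosin and actin dynamics genes described here, Tmsb10 alone was higher in every N-cre;Fox1 mouse than in every N-cre mouse, and the other 8 overlapped between the genotypes. The genes were the beta-thymosins Tmsb10 and Tmsb4x, the profilins Pfn1 and Pfn2, the cofilins Cfl1 and Cfl2, the cytoplasmic actins Actb and Actg1, and the filament-severing protein gelsolin, Gsn. They were found by name, as the 48 isoforms whose transcript name, without its final number, is one of the 9 symbols, of 133944 isoforms of 53354 gene symbols in all. Tmsb10 was chosen for its genotype difference in these mice, so that difference is given as a description without a test. The other 8 genes were listed for their function, to ask whether the Tmsb10 difference extended to them.

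Hippocampal total RNA was sequenced from 6 C57BL/6 mice aged 3 months, 3 in each genotype. All 6 mice carried N-cre, a Cre recombinase driven by the nestin promoter. In the study's reporter cross this Cre was active in the granule and pyramidal neurons of the hippocampus. The 3 N-cre mice were the controls. The 3 N-cre;Fox1 mice also carried 1 copy of an Rbfox1 cDNA at the Gt(ROSA)26Sor locus, where Cre removes a loxP-flanked stop cassette and the CAG promoter then drives the cDNA. Rbfox1 is an RNA-binding protein that regulates splicing and transcript stability in neurons.

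Actin exists as monomers and as filaments, and neurons use the exchange between these forms to shape growth cones and dendritic spines. Beta-thymosins bind monomers and hold them out of filaments, whereas profilins load monomers with ATP and deliver them to growing ends. Cofilins sever and disassemble filaments, and gelsolin severs and caps them when calcium rises.

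The expected counts summed to between 40463587 and 62141336 in the N-cre mice and to between 54352011 and 59362399 in the N-cre;Fox1 mice. Gene and isoform counts are given in CPM, the count as a part of its normalised library, scaled to a total of 1000000. The summed Rbfox1 isoforms, including reads that the cDNA shares with the native gene, were at 288, 272 and 277 CPM in N-cre mice and at 300.3, 257 and 288 CPM in N-cre;Fox1 mice. These overlapped (279 ± 8.29 against 282 ± 22.1 CPM, mean ± SD, n = 3 each), so the gene sum did not separate the labelled genotypes. The study itself reported a modest rise of Rbfox1 mRNA in N-cre;Fox1 hippocampi, and of Rbfox1 protein by immunoblot. Markers of hippocampal pyramidal and granule neurons summed to between 1307 and 1383 CPM in N-cre and between 1235 and 1429 CPM in N-cre;Fox1 mice. Markers of choroid plexus, the epithelium that makes cerebrospinal fluid, summed to 2260 CPM in N-cre replicate 3 and 5115 CPM in N-cre;Fox1 replicate 2, against 27.5 to 37.3 CPM in the other 4 mice. Xist, transcribed from the inactive X chromosome of females, was at 443 and 415 CPM in replicate 1 of N-cre and of N-cre;Fox1, and under 1 CPM in the other 4 mice.

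Tmsb10 and Tmsb4x encode closely related monomer-binding proteins of the same coding length, and the beginnings of their coding sequences are shown because these are the most alike members by role that behaved differently. Their coding sequences are both 135 nucleotides long including the stop codon and are identical at 95 of the 135 positions (70.4%) without a gap. The first 30 bases of each, taken from the GENCODE M21 transcripts of build mm10, follow with the differing bases in capitals.
Tmsb10: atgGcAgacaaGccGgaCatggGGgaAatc
Tmsb4x: atgTcTgacaaAccCgaTatggCTgaGatc

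Tmsb10 (ENSMUSG00000079523.8, chr6:72957347-72958748, minus strand, mm10) has 4 annotated isoforms with different leaders before the start codon. The coding sequence has 135 nucleotides in Tmsb10-201, Tmsb10-202 and Tmsb10-203, and 204 in Tmsb10-204. Tmsb10-204 also parts from the others at its 3′ end, where it runs on into their last intron and lacks their last exon. The 12 leader bases before the stretch that all 4 share, in capitals, are followed below by the 12 shared bases up to the start codon and by that codon. They show where the leaders part.
Tmsb10-201: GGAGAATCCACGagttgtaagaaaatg
Tmsb10-202: TTCGCCCATCAGagttgtaagaaaatg
Tmsb10-203: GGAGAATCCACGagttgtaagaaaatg
Tmsb10-204: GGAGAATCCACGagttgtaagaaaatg
Tmsb10-202 thus differed from the other 3 isoforms in the bases before the shared stretch.

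The Tmsb10 gene sum was at 53.4, 50.6 and 48.6 CPM in the N-cre mice and at 78.7, 87.3 and 76.8 CPM in the N-cre;Fox1 mice. Every N-cre;Fox1 mouse was above every N-cre mouse. The means were 50.9 ± 2.45 and 80.9 ± 5.59 CPM (SD, n = 3 each), which is 1.59-fold higher (log2 fold change 0.67, standard error, SE, 0.0543). Without the pair of mice high in choroid plexus markers, the log2 fold change was 0.58 (SE 0.0423), an alternative chosen after seeing the data. In bulk tissue, a change in the number of cells of a type and a change in the RNA per cell cannot be told apart. Some astrocyte markers moved with the genotype beside Tmsb10. The 8 markers listed summed to between 4152 and 4364 CPM in N-cre and to between 4422 and 4759 CPM in N-cre;Fox1 mice. Of these markers, Gfap, Aqp4, Slc1a2 and Gja1 had log2 fold changes of 0.39, 0.21, 0.12 and 0.10 and did not overlap between the genotypes, which held for 12.3% of all genes tested. These 4 had an unadjusted p under 0.05, as did 6.31% of all genes. The other 4 markers overlapped, with log2 fold changes of -0.14 for Aldh1l1, -0.04 for Gjb6, -0.02 for Slc1a3 and 0.03 for Aldoc. In all, 0 of the 8 passed the adjusted threshold of 0.05 in edgeR, and their part in the Tmsb10 difference was not tested. The other marker sums overlapped, at 386 to 405 against 385 to 419 CPM for microglia, 187 to 207 against 191 to 218 CPM for endothelium, 4543 to 5137 against 4415 to 5392 CPM for oligodendrocytes, 292 to 335 against 304 to 330 CPM for immature granule neurons, and 125 to 142 against 111 to 174 CPM for thalamus and striatum.

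**Figure D1:**
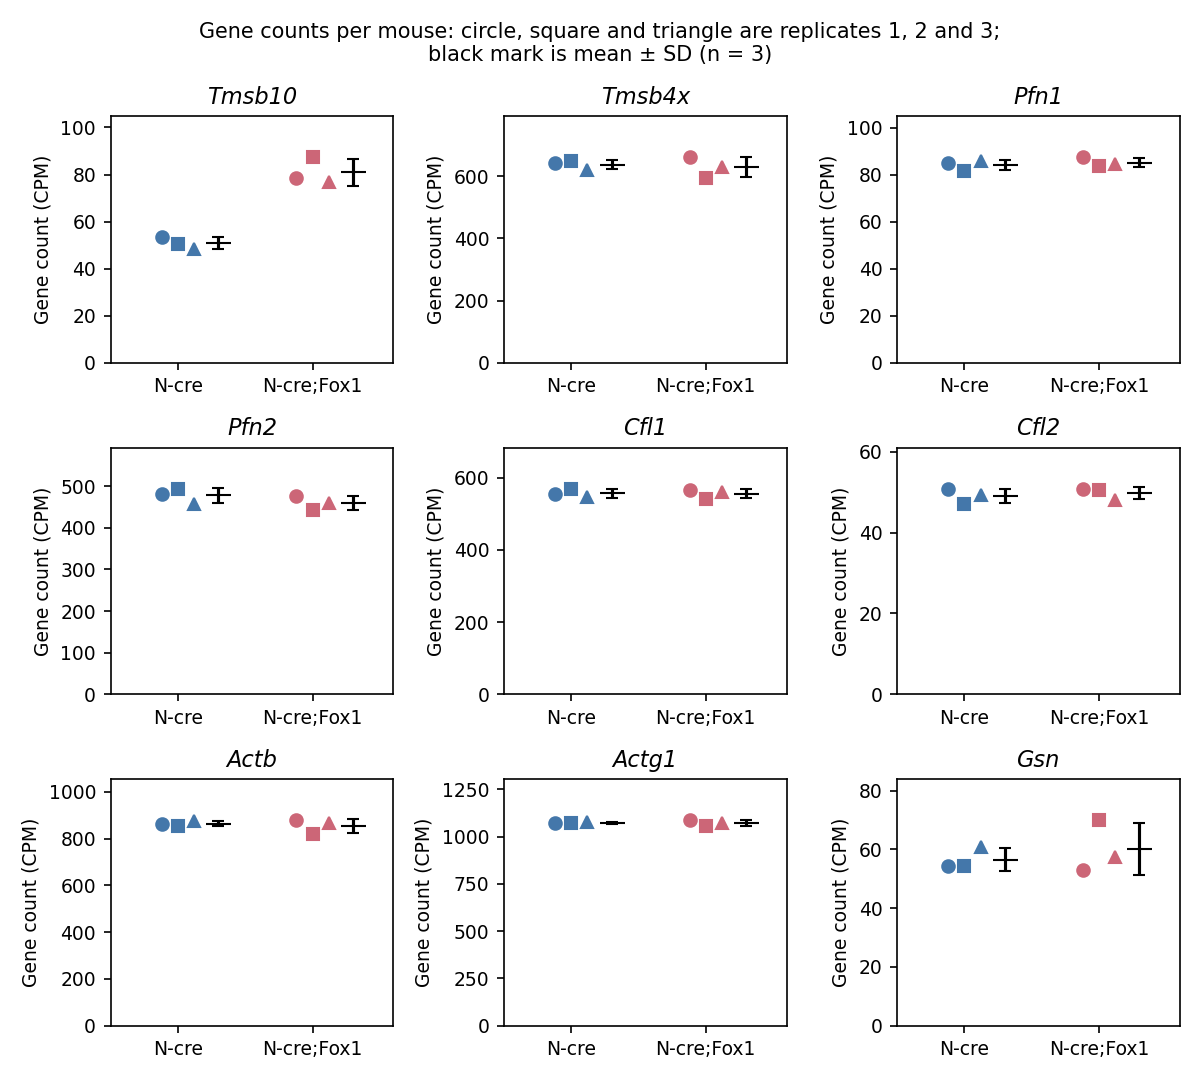
Gene counts of the 9 genes in CPM (y axis, from 0) by genotype (x axis), with 1 symbol per mouse and the mean ± SD (n = 3) in black. The 3 N-cre;Fox1 mice lie above the 3 N-cre mice for Tmsb10, and the genotypes overlap for the other 8 genes.

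Tmsb4x, the most abundant beta-thymosin of these libraries, was at 643, 649 and 621 CPM in N-cre mice and at 660.3, 595 and 631 CPM in N-cre;Fox1 mice. The genotypes overlapped, and the log2 fold change was -0.02 with a 95% confidence interval of -0.12 to 0.08 (adjusted p = 0.978 by the quasi-likelihood test of edgeR, adjusted over all genes by the Benjamini-Hochberg method). Tmsb10 counts therefore made up a larger percentage of Tmsb4x counts in N-cre;Fox1 mice. That percentage was 8.31, 7.81 and 7.82% in N-cre and 11.9, 14.7 and 12.2% in N-cre;Fox1 mice. Against the sum of the other 8 genes, Tmsb10 was at 1.34 ± 0.0605% in N-cre and 2.15 ± 0.201% in N-cre;Fox1 mice (SD, n = 3 each), as follows from the same gene values.

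Per length, in TPM, the transcripts of a gene in a total of 1000000 transcripts, computed with annotated transcript lengths, Tmsb4x was the highest of the 9 genes, at 2058 TPM over the 6 mice. Actg1 at 1387 TPM, Actb at 1246 TPM, Cfl1 at 971 TPM and Pfn2 at 568 TPM followed, and none of these 5 genes overlapped its neighbour in the order in any mouse. Tmsb10 and Pfn1 came next. In N-cre mice their levels overlapped, at 223 ± 9.66 TPM for Tmsb10 and 230.4 ± 6.93 TPM for Pfn1. In N-cre;Fox1 mice Tmsb10 was above Pfn1, at 355 ± 28.3 against 234 ± 3.60 TPM. Cfl2 at 75.0 TPM and Gsn at 57.0 TPM were the lowest, and they lay apart in every mouse.

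The profilins overlapped between the genotypes. Pfn1, the widely expressed profilin, was at 85.0, 81.8 and 85.9 CPM in N-cre and at 87.4, 83.6 and 84.5 CPM in N-cre;Fox1 mice, a log2 fold change of 0.02 (95% interval -0.06 to 0.09, edgeR's adjusted p = 0.977). Pfn2, the main profilin of neurons, was at 482, 494 and 458 CPM in N-cre and at 477, 443 and 459.9 CPM in N-cre;Fox1 mice, a log2 fold change of -0.06 (95% interval -0.15 to 0.04, edgeR's adjusted p = 0.907). No profilin therefore differed beyond the spread between mice at this depth.

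The cofilins and actins overlapped as well. Cfl1, the main cofilin outside muscle, was at 556, 569 and 545 CPM in N-cre and at 567, 541 and 560.1 CPM in N-cre;Fox1 mice, a log2 fold change of 0.00 (95% interval -0.09 to 0.08, edgeR's adjusted p = 0.997). Cfl2, the cofilin known from muscle, was at 50.8, 47.2 and 49.2 CPM against 50.8, 50.4 and 48.0 CPM, a log2 fold change of 0.02 (95% interval -0.07 to 0.11, edgeR's adjusted p = 0.976). Actb, beta-actin, was at 861, 855 and 875 CPM in N-cre and at 879, 821 and 867 CPM in N-cre;Fox1 mice (log2 fold change -0.01, 95% interval -0.10 to 0.07, edgeR's adjusted p = 0.983). Actg1, gamma-actin and the highest of the 9 genes by counts, was at 1070, 1070 and 1077 CPM in N-cre and at 1087, 1057 and 1071 CPM in N-cre;Fox1 mice (log2 fold change 0.00, 95% interval -0.08 to 0.08, edgeR's adjusted p = 0.997). These intervals hold the log2 fold changes of all 4 genes within 0.11 of 0.

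Gsn varied most among mice of the 8 genes other than Tmsb10. It was at 54.3, 54.4 and 60.9 CPM in N-cre and at 52.8, 69.9 and 57.3 CPM in N-cre;Fox1 mice, a log2 fold change of 0.09 (95% interval -0.21 to 0.38, edgeR's adjusted p = 0.958). The highest mouse of each genotype, N-cre replicate 3 and N-cre;Fox1 replicate 2, was the mouse with the high choroid plexus markers. Among the Gsn isoforms this held for Gsn-207, at 1.69, 1.57 and 2.35 CPM in N-cre and at 1.56, 2.15 and 1.52 CPM in N-cre;Fox1 mice. It also held for Gsn-205, a protein-coding isoform with a coding sequence of 2196 nucleotides, which was at 12.6, 15.9 and 19.2 CPM in N-cre and at 11.9, 26.5 and 14.1 CPM in N-cre;Fox1 mice. Gsn-206 went another way, at 0.634, 0.336 and 0.864 CPM in N-cre and at 0.391, 0.189 and 0.694 CPM in N-cre;Fox1 mice, the lowest of which was replicate 2. Gsn-201, with 2343 coding nucleotides, was at 39.5, 36.9 and 38.6 CPM against 39.1, 40.7 and 40.9 CPM, highest in N-cre replicate 1 and N-cre;Fox1 replicate 3. Without both mice the Gsn log2 fold change was 0.02 (95% interval -0.09 to 0.13), and without N-cre;Fox1 replicate 2 alone it was -0.04; the part of the choroid plexus in the Gsn values was not tested beyond these fits.

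**Figure D2:**
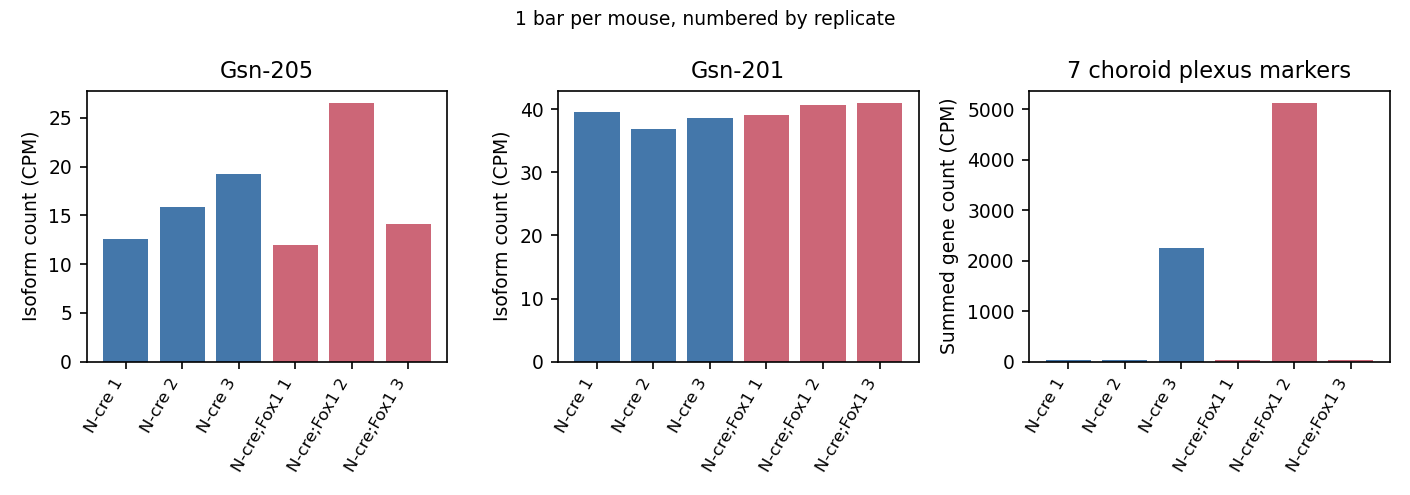
Isoform counts of Gsn-205 and Gsn-201 and the summed gene count of 7 choroid plexus markers (CPM, y axes from 0), with 1 bar per mouse. Gsn-205 is highest at 19.2 and 26.5 CPM in the mice whose markers sum to 2260 and 5115 CPM, while Gsn-201 lies between 36.9 and 40.9 CPM in all 6.

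Of the 8 genes other than Tmsb10, 0 passed the adjusted threshold of 0.05 in edgeR, against 0.0264% of the 18925 genes tested, and 0 had an unadjusted p under 0.05, against 6.31% of all genes. None of the 8 was without overlap between the genotypes, against 12.3% of all genes tested. DESeq2's Wald test and limma-voom also called 0 of the 8. Of these 8 log2 fold changes, 3 were above 0 and 5 below, with a median of 0.00, which was also the median over all genes tested. Apart from Gsn, their 95% intervals lay between -0.15 and 0.11.

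**Figure D3:**
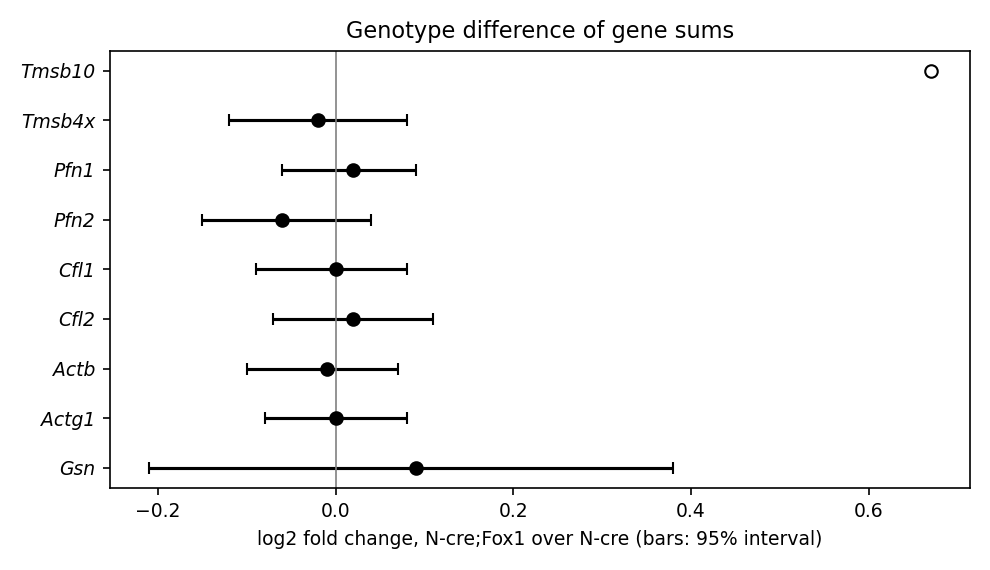
Log2 fold change of each gene sum in N-cre;Fox1 over N-cre mice (x axis) for the 9 genes (y axis), with the 95% interval of the edgeR fit as bars for 8 of them. Tmsb10, chosen for its difference, is an open point at 0.67 without an interval, and of the intervals of the other 8 genes that of Gsn is the widest at -0.21 to 0.38.

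The Tmsb10 counts lay mostly in Tmsb10-203, the isoform with the leader of 164 nucleotides. It was at 50.5, 48.9 and 46.1 CPM in N-cre and at 74.2, 83.3 and 72.3 CPM in N-cre;Fox1 mice, a log2 fold change of 0.66 (SE 0.0670). The low isoforms had fewer counts behind them. Tmsb10-202 was at 1.09, 1.03 and 1.16 CPM against 1.81, 1.53 and 1.98 CPM, Tmsb10-201 at 0.975, 0.246 and 0.444 CPM against 1.66, 0.998 and 1.51 CPM, and Tmsb10-204 at 1.06, 0.739 and 0.963 CPM against 1.17, 1.17 and 1.08 CPM. All 4 were higher in every N-cre;Fox1 mouse than in every N-cre mouse, as were 5.85% of the 50556 isoforms tested, and nothing is read from this since the gene was chosen for its difference.

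The share of the gene's counts in each Tmsb10 isoform overlapped between the genotypes. Tmsb10-203 took 94.2, 96.1 and 94.8% in N-cre mice and 94.1, 95.7 and 94.0% in N-cre;Fox1 mice. The gene sum and its main isoform thus moved together, while the isoforms share sequence and their split is an estimate.

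**Figure D4:**
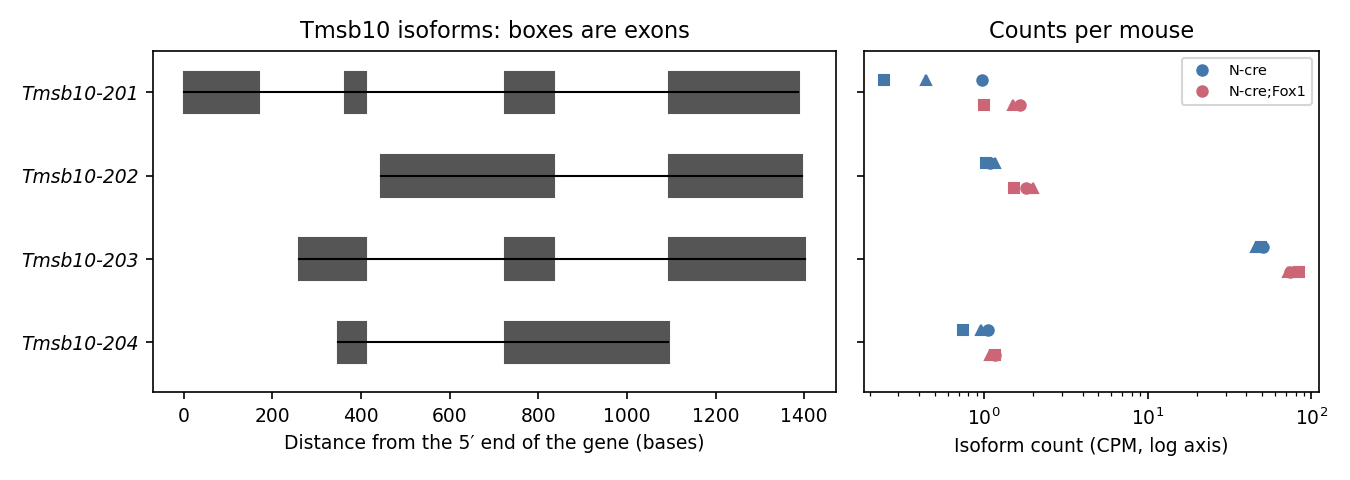
Exons of the 4 Tmsb10 isoforms (left, boxes, x axis in bases from the 5′ end of the gene) and their counts per mouse (right, CPM, log axis). Each isoform is higher in the N-cre;Fox1 mice, and Tmsb10-203, at 46.1 to 50.5 CPM in N-cre and 72.3 to 83.3 CPM in N-cre;Fox1 mice, holds most of the counts.

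Of the 44 isoforms of the other 8 genes, 35 passed the filter on low counts, 4 had no counts, and 0 passed the adjusted threshold of 0.05 in edgeR, as did 0.00% of all isoforms tested. DESeq2's Wald test also called 0 of the 35. An unadjusted p under 0.05 was found for 3 of the 35, against 4.78% of all isoforms. No overlap between the genotypes was found for 4 of the 35, against 11.5% of all isoforms.

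The 3 isoforms with the low unadjusted p are all outside the main coding isoforms of their genes. Actb-206, annotated as a processed transcript, was at 0.910, 0.941 and 1.09 CPM in N-cre and at 2.53, 1.72 and 1.62 CPM in N-cre;Fox1 mice (log2 fold change 1.00, SE 0.236, edgeR's adjusted p = 0.833). Actb-205, which retains an intron, was at 14.9, 14.9 and 16.2 CPM against 12.5, 13.8 and 13.5 CPM (log2 fold change -0.21, SE 0.0749, edgeR's adjusted p = 0.990). Cfl2-206, annotated as a target of nonsense-mediated decay, was at 0.162, 0.112 and 0.123 CPM against 0.316, 0.361 and 0.389 CPM, from a mean of only 12.9 normalised counts per mouse (log2 fold change 1.40, SE 0.382, edgeR's adjusted p = 0.946). None of them passed the adjusted threshold. Actg1-204, with the full actin coding sequence of 1128 nucleotides, was the fourth isoform without overlap, at 86.6, 55.0 and 50.7 CPM against 17.5, 50.5 and 49.9 CPM. Its log2 fold change was -0.71 (SE 0.433) and depended on single mice, at -0.43 without N-cre replicate 1 and -0.36 without N-cre;Fox1 replicate 1, and at -1.07 without both mice high in choroid plexus markers. The first mouse of each genotype lay apart from the other mice, and the closest mice of the 2 genotypes were at 50.7 and 50.5 CPM.

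The most abundant isoforms of the 8 genes overlapped between the genotypes. Actb-201 had a log2 fold change of -0.02, Actb-208 of 0.03, Actg1-202 of 0.03, Cfl1-201 of 0.00, Cfl1-202 of -0.02, Cfl2-201 of 0.05 and Gsn-201 of 0.07. Pfn1-201 had a log2 fold change of 0.02, Pfn2-201 of -0.04, Pfn2-202 of -0.08 and Tmsb4x-201 of -0.03. Gsn-205, given above, had a wide 95% interval of -0.67 to 0.95 around its log2 fold change of 0.14. The other isoforms with a mean of at least 100 normalised counts, Actb-203, Actb-204, Actg1-209, Cfl2-203, Cfl2-205, Pfn1-203, Pfn2-203 and Tmsb4x-202, overlapped too (apart from Actb-205 and Actg1-204, given above), with log2 fold changes of 0.34, 0.04, 0.18, -0.04, -0.17, -0.06, 0.00 and 0.03.

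**Figure D5:**
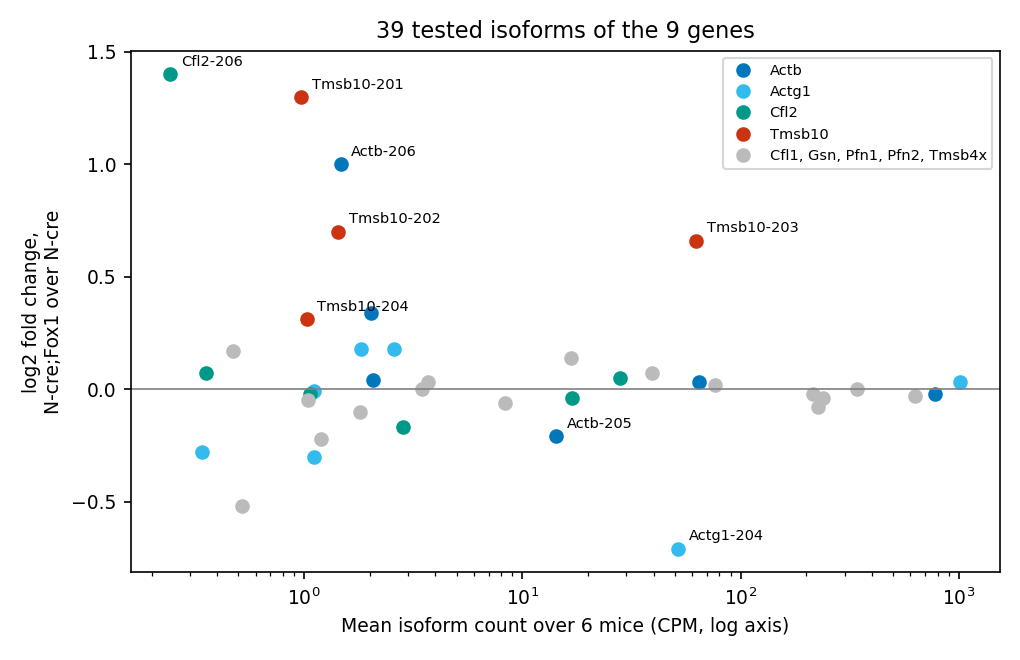
Log2 fold change in N-cre;Fox1 over N-cre mice (y axis) against the mean isoform count of the 6 mice (x axis, CPM, log axis) for the 39 tested isoforms of the 9 genes, coloured by gene. The 4 Tmsb10 isoforms are above 0, and the isoforms above about 100 CPM lie close to 0.

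Within each gene, the share of an isoform was compared by an exact two-sided permutation test, which cannot give a p under 0.1 with 3 mice against 3. Of 35 shares of the genes other than Tmsb10, 3 did not overlap between the genotypes (8.57%), against 10.9% of the shares of all tested isoforms. They were those of Actb-205, which was lower in N-cre;Fox1 mice, and of Actb-206 and Cfl2-206, which were higher, each with an exact p of 0.1, the smallest possible (adjusted p = 0.966). Actb-205 took 1.77 ± 0.0680% of the Actb counts in N-cre and 1.55 ± 0.136% in N-cre;Fox1 mice. Actb-206 took 0.113 ± 0.0103% and 0.229 ± 0.0528%, and Cfl2-206 took 0.275 ± 0.0285% and 0.713 ± 0.0917% of the Cfl2 counts.

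The Rbfox1 protein binds the hexamer TGCATG, which was searched for on the sense strand of the most abundant isoform of each gene. Introns were not searched, nor was the shorter GCATG, which the study also counts as a binding site. No match was found in Tmsb10-203, of 570 nucleotides, while 14.9% of the 5781 isoforms of like length held it, and none in the other 3 Tmsb10 isoforms. Tmsb4x-201 had 1 match, Pfn2-201 had 2 and Actg1-202 had 1, all in 3′ untranslated regions, and these are shown, with the hexamer in capitals and 10 bases on either side, because they are the matches in the most abundant isoforms.
Tmsb4x-201, positions 582 to 587: gaaaagaactTGCATGttggtgaagg
Pfn2-201, positions 1325 to 1330: aataatgattTGCATGatatcttgaa
Pfn2-201, positions 1538 to 1543: gaggaaaaagTGCATGcctctgtacg
Actg1-202, positions 1281 to 1286: aggcatctgcTGCATGagctgatatt
Positions count from 1 at the 5′ end of the transcript. The hexamer was held by 18.1, 47.8 and 41.4% of isoforms of like length for these 3 genes. The most abundant isoforms of Pfn1, Cfl1, Cfl2, Actb and Gsn had no match, where 19.7, 25.6, 55.5, 41 and 52.2% of isoforms of like length did. Among the other isoforms of these 5 genes, Cfl1-202 and Actb-205 had 1 match each. Among the other isoforms of Tmsb4x, Pfn2 and Actg1, Pfn2-202 had 2 matches. Tmsb4x-203, Pfn2-203, Actg1-204 and Actg1-201, which had no counts, had 1 each. The gene sums of Tmsb4x, Pfn2, Actg1, Cfl1 and Actb overlapped between the genotypes, as given above. Of the tested isoforms with a match, Tmsb4x-201, Tmsb4x-203, Pfn2-201, Pfn2-202, Pfn2-203, Actg1-202 and Cfl1-202 overlapped between the genotypes. Actb-205 and Actg1-204 were lower without overlap, the latter only at 50.7 against 50.5 CPM. No overlap in either direction held for 11.5% of all isoforms tested. Neither Actb-205 nor Actg1-204 passed the adjusted threshold, and nothing about the hexamer is read from them.

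The actin genes outside the 9 were read through 9 lists of regulators, chosen by function, that held 116 gene symbols, of which 108 were tested. Of these, 1 passed the adjusted threshold of 0.05 in edgeR, against 0.0264% of the 18925 genes tested. It was Daam2, a formin that elongates filaments, which fell from 142 ± 9.31 to 95.8 ± 2.14 CPM (SD, n = 3 each). Its log2 fold change was -0.57 (SE 0.0478, edgeR's adjusted p = 0.00285). Daam2 was known from earlier results of these data, so its p is not an independent test. Without Daam2, 0 passed. An unadjusted p under 0.05 was found for 6 of the 108 (5.56%), against the 6.31% of all genes given above, and the median log2 fold change of the 108 was 0.00, with 52 above and 56 below 0.

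By role, the other beta-thymosins Tmsb15b1, Tmsb15b2 and Tmsb15l were low, between 0.676 and 1.89 CPM in all mice, and had log2 fold changes of -0.09, -0.15 and 0.01. The other actins Acta2 and Acta1, smooth and skeletal muscle actin, had values of 0.08 and -0.17. Of the other profilins, ADF and gelsolin family, 8 were tested, and the most abundant, Dstn, an actin-depolymerising factor, and Flii, a gelsolin relative, had log2 fold changes of -0.01 and -0.02. Of 17 regulators of cofilin and of monomers, Limk1, the kinase that inactivates cofilin by phosphorylation, was at 50.9, 48.7 and 47.5 CPM against 50.8, 52.1 and 53.2 CPM (log2 fold change 0.09, edgeR's adjusted p = 0.782). Cap1 and Cap2, which recycle monomers, had log2 fold changes of 0.02 and 0.00.

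Of 22 genes of the Arp2/3 complex, which starts branches, and its activators, 0 had an unadjusted p under 0.05, and 5 were above and 17 below 0. The most abundant, Cyfip2 and Nckap1 of the WAVE complex, had log2 fold changes of -0.02 and 0.05. Of 19 formins and other nucleators or elongators, Fmn1 and Fhod3 had log2 fold changes of 0.21 and -0.23 beside Daam2, each with an edgeR adjusted p of 0.782, and Spire1 and Enah had 0.02 and 0.01. Of 11 capping proteins and tropomodulins, Tmod3, which caps the slow-growing end, was at 24.6, 23.4 and 24.4 CPM against 26.3, 28.3 and 25.2 CPM, a log2 fold change of 0.14 (edgeR's adjusted p = 0.782), and Add2 and Add1 had -0.07 and -0.03. Of 16 tropomyosins and crosslinkers, 0 had an unadjusted p under 0.05, and Dbn1, the spine protein drebrin, and Pls3 had 0.00 and -0.03. Of 10 genes of the actin-regulated factor SRF, its cofactors and targets, Myh9, a non-muscle myosin, was at 157, 153 and 158 CPM against 177, 167 and 162 CPM, a log2 fold change of 0.12 (edgeR's adjusted p = 0.711), and Mkl2 had 0.03.

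The genes whose pattern over the 6 mice was most like that of Tmsb10 were sought by the root mean square difference of mean-centred log2 CPM among 13735 genes with a mean of at least 100 counts. These were Suclg1 at 0.0681, Sspn at 0.0921, Tm6sf2 at 0.123, Cybrd1 at 0.140 and Aspg at 0.151 log2 units. Suclg1 and Sspn, like Tmsb10, are on chromosome 6, and Tm6sf2, Cybrd1 and Aspg are on chromosomes 8, 2 and 12. How many of the 13735 genes lie on chromosome 6 was not counted, so nothing is read from this. The difference between the genotypes makes up most of the Tmsb10 pattern, so these genes are likewise those that were higher in N-cre;Fox1 mice. By the study's methods, the locus that holds the inserted cDNA is on chromosome 6 too. It was targeted in stem cells of another mouse strain, and by the study's account the mice were then backcrossed to a pure C57BL/6J background. The distance of this locus from Tmsb10, Suclg1 and Sspn was not measured. Only the N-cre;Fox1 mice carried the targeted locus, so the cDNA and the DNA around it were not separated. Whether DNA of that strain remained there, and its part in the Tmsb10, Suclg1 and Sspn differences, was not tested. The other 8 actin genes ranked between 2740, for Gsn at 0.318, and 10217, for Pfn2 at 0.373.

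Reads that near-identical copies share could shift the counts of 2 of the 9 genes. Gm9844, a copy of Tmsb10, took between 1.13 and 1.77% of their summed counts, and 7 copies of Actg1, 5 of them processed pseudogenes, took between 1.47 and 1.69%. Cfl1 overlaps Snx32 and Cfl2 overlaps 1700081N11Rik on the opposite strand, and Gsn overlaps Gm43128 and Actg1 a pair of microRNA genes on the same strand. Whether the counting used strand is not given in the sources used here.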

How the data were processed

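Total RNA from 6 hippocampi was made into TruSeq Stranded Total RNA libraries and sequenced as read pairs. Per the labels and the study's methods, the authors trimmed reads with cutadapt 1.18, aligned them to mm10 with STAR 2.5.2b and quantified isoforms with RSEM 1.3.0 and the GENCODE M16 annotation. The EBSeq test of the study was not used here. The deposited values are expected counts per isoform, which need not be whole and depend on how RSEM divides reads that isoforms share.

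Expected counts of each isoform were rounded to whole numbers and, for genes, then summed over the isoforms of each gene symbol. Genes and isoforms were tested in edgeR 4.0.16 (R 4.3.3) with its default filter on low counts, TMM normalization and the quasi-likelihood test of N-cre;Fox1 against N-cre, over all 18925 genes or 50556 isoforms, with Benjamini-Hochberg adjustment and a threshold of 0.05. Limma 3.58.1 and DESeq2 1.42.0 were alternatives. The steps were tested on simulated data. Transcript positions, lengths and sequences came from GENCODE M21, which matched all 48 isoforms of the 9 genes and 130826 of the 133944 isoforms. TPM used annotated lengths. Copies were other transcripts identical to a member over at least 90% of aligned bases and 50% of its length. Isoforms of like length were those of 0.8 to 1.25 times the length with a mean of at least 10 counts.

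Groups came from the labels. Each library is labelled with an animal of its own. Isoforms of the 9 genes with a mean of at least 100 normalised counts were named, and of each list the genes with an unadjusted p under 0.05 and the 2 with the highest mean count. Isoforms below that mean that are named were chosen after their values were seen, apart from those of Tmsb10. The members and lists were chosen with earlier results of these data known.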

Additional observations from a re-analysis of the deposited data

How the results depend on the processing

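The 8 genes other than Tmsb10 and their isoforms had no adjusted p under 0.05 in any of the alternatives run. For Tmsb10, chosen for its difference, only log2 fold changes are given. The Tmsb10 log2 fold change lay between 0.58 and 0.71 over 17 alternatives, the lowest without both mice high in choroid plexus markers, an alternative chosen after seeing the data; the log2 fold changes of the other 8 genes lay between -0.09 and 0.17. The labels give replicate numbers but do not say whether equal numbers pair the mice. Correlations of gene deviations from the group means were 0.495, -0.21 and -0.358 between mice of equal number. Between mice of different numbers they ran from -0.473 to 0.607, the highest between the mice high in choroid plexus markers. With 3 mice in each genotype these values cannot decide whether the mice were paired. The fit with the replicate block gave 5 genes and 0 isoforms past the threshold, as without it.

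Over all genes, 5 passed. The count was 45 with no filter beyond 1 count, 50 in DESeq2's Wald test, 10 with a term for Xist, 3 at an adjusted p under 0.01, and from 2, without N-cre replicate 2, to 29, without N-cre;Fox1 replicate 1, when 1 mouse was left out. It was 3 without N-cre replicate 3 and 3 without N-cre;Fox1 replicate 3. Of all isoforms 0 passed, against 10 with no filter beyond 1 count, 6 with at least 10 counts in every sample, 215 in DESeq2's Wald test and 1 with expected counts not rounded. The shares without overlap were 3 in all, 4 to 8 when 1 mouse was left out and 11 without both mice high in choroid plexus markers; with fewer mice, groups separate more often.

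Directions of values near 0 turned when 1 mouse was left out. The log2 fold changes then ranged from -0.03 to 0.01 for Actb, -0.10 to 0.16 for Actb-204, -0.03 to 0.13 for Actb-208, -0.05 to 0.01 for Cfl1-202, -0.01 to 0.05 for Cfl2, -0.04 to 0.17 for Gsn, -0.29 to 0.35 for Gsn-205, -0.01 to 0.04 for Pfn1-201, -0.11 to 0.02 for Pfn2-201, -0.06 to 0.02 for Tmsb4x, -0.07 to 0.01 for Tmsb4x-201 and -0.04 to 0.10 for Tmsb4x-202. Without both mice high in choroid plexus markers, they were 0.03 for Actb, 0.01 for Actb-201, 0.02 for Cfl2-203, -0.13 for Gsn-205 and 0.01 for Pfn2-201. The cause was not tested. Depth limits the isoforms of few counts, such as Cfl2-206, and expected counts carry no error of their own. With 3 mice in each genotype, the p-values of the fits set a difference against the spread between mice. The fits estimate that spread partly from the other genes or isoforms, since 3 mice give little information on it.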
